A study of Homo sapiens with 3 samples.

Results

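The genes examined were the cytosolic ribosomal protein genes, which encode the protein part of the ribosome that translates nuclear mRNA. They were taken as the protein-coding genes of GENCODE 44 on chromosomes 1 to 22 and X whose names start with RPL (large subunit) or RPS (small subunit). Of 100 such names, 12 were left out because they encode other proteins, namely 10 RPS6K kinase genes, RPS19BP1 and RPL7L1. The remaining 88 members lay on 21 chromosomes and were compared with all 19819 protein-coding genes that had a canonical transcription start site (TSS). Of the members, 77 were core genes of the ribosome (46 of the 60S and 31 of the 40S subunit), 8 were paralogues and 3 were read-through genes that join a member to its neighbour. A list drawn by name misses FAU, which encodes a ribosomal protein fused to a ubiquitin-like sequence, and it was counted beside the members.

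ETS1 binding was mapped by chromatin immunoprecipitation and sequencing (ChIP-Seq) in untreated SCC25 cells, an established head and neck cancer line derived from the tongue. The 3 ChIP samples used polyclonal antibodies against ETS1, C20 in 2 of them and 501A in 1. All values rest on 1 cell line. The measurement in hand was the authors' consensus list of 26970 peaks, pooled over the 3 samples, as genomic intervals without score, read count or value for any single sample. For this reason no spread between replicates, no difference between antibodies and no test over samples could be given. Shares of genes are reported with 95% Wilson intervals, which cover counting error only, beside the same share over all protein-coding genes. Depth per sample is not in the list, and a gene without a listed peak may still have been bound below the threshold of the list. Peak positions hold no expression values, so the identity of the cells could not be checked against marker genes.

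ETS1 belongs to a family of transcription factors that share a DNA-binding domain, the ETS domain, and recognise a short sequence around GGAA. Many family members prefer a longer form, CCGGAAGT, and this form is common close to the start sites of housekeeping genes. Ribosomal protein genes are transcribed by RNA polymerase II at high rates in growing cells. Most of them have compact promoters without a TATA box, and their mRNAs typically begin with a C followed by a run of pyrimidines, the terminal oligopyrimidine (TOP) tract, through which translation responds to nutrient signals.

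The promoter sequences that follow show where the ETS 6-mer CGGAAG stands relative to the start site. They were read from the hg19 genome by coordinates, 5′ to 3′ along the gene, with each match to CGGAAG, or to CTTCCG where the match is on the other strand, in capitals. The first set holds 8 members with an early listed peak and a match within 100 bp of the TSS, and some members that meet both conditions are not shown. For RPL37, RPL6, RPS3A, RPS14 and RPS3 the run covers 100 bases before the TSS and the first 20 transcribed bases. For RPS26, RPL38 and RPL27, where another transcript's leader covers the region, only 30 bases around the match are shown, with 10, 25 and 10 bases before the start site.
RPS26 at chr12:56435692-56435721, plus strand: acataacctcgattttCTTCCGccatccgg
RPL37 at chr5:40835305-40835424, minus strand: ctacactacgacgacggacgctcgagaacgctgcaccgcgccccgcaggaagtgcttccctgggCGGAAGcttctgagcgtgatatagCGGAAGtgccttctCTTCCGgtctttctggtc
RPL6 at chr12:112847390-112847509, minus strand: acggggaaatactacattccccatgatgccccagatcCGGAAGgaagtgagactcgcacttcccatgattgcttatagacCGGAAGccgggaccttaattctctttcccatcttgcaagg
RPS3A at chr4:152020680-152020799, plus strand: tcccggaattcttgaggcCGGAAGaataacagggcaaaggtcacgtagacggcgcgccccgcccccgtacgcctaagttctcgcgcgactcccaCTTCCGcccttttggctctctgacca
RPS14 at chr5:149829283-149829402, minus strand: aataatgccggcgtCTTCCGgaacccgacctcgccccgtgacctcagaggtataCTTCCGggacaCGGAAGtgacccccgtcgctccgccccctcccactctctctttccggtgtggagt
RPS3 at chr11:75110462-75110581, plus strand: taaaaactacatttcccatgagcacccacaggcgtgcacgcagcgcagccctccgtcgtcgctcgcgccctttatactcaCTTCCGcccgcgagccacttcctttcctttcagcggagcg
RPL38 at chr17:72199792-72199821, plus strand: actgcccggaaaCGGAAGtctcgttctttt
RPL27 at chr17:41150426-41150455, plus strand: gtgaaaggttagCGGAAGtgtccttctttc

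The second set holds members without a peak at the promoter. They are shown for contrast, since the same 6-mer stands close to the start site of RPSA2. RPL14 is again limited to 30 bases, with 10 before the start site.
RPL10L at chr14:47120965-47121084, minus strand: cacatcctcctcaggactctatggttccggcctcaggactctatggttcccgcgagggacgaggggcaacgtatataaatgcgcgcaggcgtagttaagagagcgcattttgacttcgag
RPL14 at chr3:40498820-40498849, plus strand: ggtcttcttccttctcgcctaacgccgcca
RPSA2 at chr19:23945706-23945825, plus strand: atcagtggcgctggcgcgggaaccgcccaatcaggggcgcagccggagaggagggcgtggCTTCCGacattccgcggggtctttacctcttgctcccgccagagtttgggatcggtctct

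The first question was how many ribosomal protein genes carried an ETS1 peak at the promoter. Nearly all of them did. A midpoint fell in the window from 5 kb before to 1 kb past the TSS, called the basal window here, at 84 of 88 members (95.5%, interval 88.9 to 98.2%). Over all protein-coding genes the share was 56.1% (11114 of 19819), and over the 12988 genes with a CpG-rich promoter it was 73.5%. A promoter counted as CpG-rich if, in the 250 bp to each side of the TSS, GC content was at least 55% and CpG occurred at 0.6 or more of its expected rate. A peak covered the start site itself at 82 members (93.2%, interval 85.9 to 96.8%), against 52.4% of all genes and 71.3% of genes with a CpG-rich promoter. A midpoint lay within 500 bp of the start site at 80 members (90.9%, interval 83.1 to 95.3%), against 46.9% of all genes and 64.3% of the CpG-rich ones. On each of these measures the lower bound for the members was above the share of all genes and of CpG-rich genes.

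**Figure D1:**
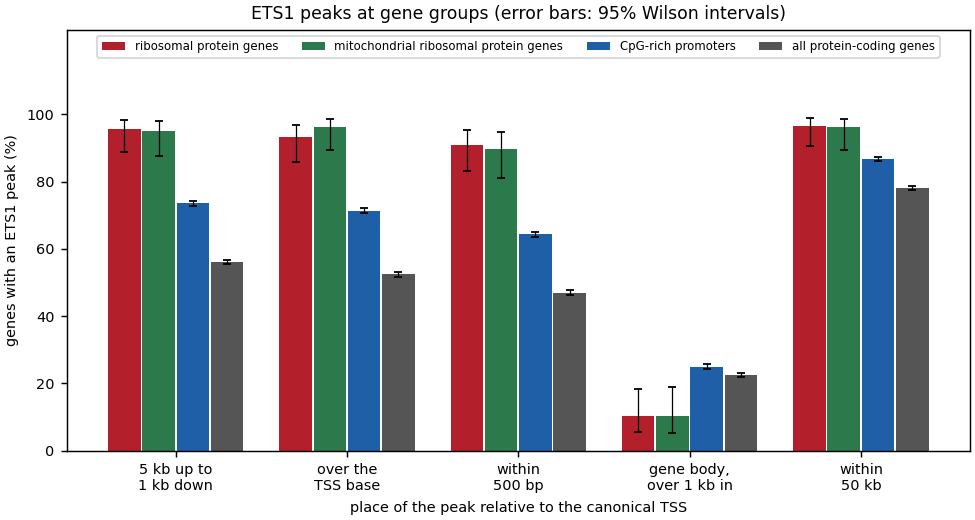
Share of genes with an ETS1 peak (percent, y axis) by the place of the peak relative to the start site (x axis) for 88 cytosolic ribosomal protein genes, 78 mitochondrial ribosomal protein genes, 12988 genes with a CpG-rich promoter and 19819 protein-coding genes, with bars for the share and error bars for 95% Wilson intervals. In the basal window the ribosomal protein genes stood at 95.5% against 56.1% of all genes, while peaks in the gene body were found at 10.2% of them against 22.6%.

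Subunit made little difference to these shares. The basal window held a peak at 45 of 46 core 60S genes and at 30 of 31 core 40S genes, and a peak covered the start site of the same numbers of genes. The stalk proteins RPLP0, RPLP1 and RPLP2, which form the flexible arm of the large subunit that recruits elongation factors, each had a peak over the start site. Its midpoint was 14 bp upstream at RPLP0, 193 bp downstream at RPLP1 and 133 bp upstream at RPLP2, and the RPLP2 peak was the widest of the 3 at 1916 bp, against 874 bp at RPLP0 and 1189 bp at RPLP1. Several ribosomal protein genes are known to be mutated in Diamond-Blackfan anaemia, an inherited failure of red cell production. Among them RPS19, the gene most often mutated in this disease, had a peak of 1839 bp whose midpoint lay 171 bp downstream of the start site. The midpoint was 331 bp downstream at RPL5 and 247 bp downstream at RPL11, whose products bind the 5S rRNA and MDM2. It was 213 bp upstream at RPL35A, 204 bp upstream at RPL26 and 27 bp downstream at RPL15, the other large-subunit genes of this group. Of the small-subunit genes, RPS26, RPS28 and RPS29 had midpoints nearest to the start site, at 22, -37 and -33 bp. RPS7, RPS10 and RPS24 had theirs 148, 119 and 135 bp downstream. These peaks were 690 to 1839 bp wide, the narrowest being that of RPS24, and each covered the start site.

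The mitochondrial ribosomal protein genes, which are named MRPL or MRPS and serve the separate ribosome of the mitochondrion, gave similar shares. A basal peak was present at 74 of 78 (94.9%, interval 87.5 to 98.0%), and a peak covered the start site at 75 (96.2%). The intervals of both gene sets overlapped on every measure of occupancy, so that no difference between them could be seen at these numbers of genes. Other genes of ribosome production gave shares in the same range. FAU had a basal peak with its midpoint 149 bp downstream. Of 18 translation factors and other genes with TOP mRNAs, 17 had one (94.4%, interval 74.2 to 99.0%). The exception was VIM, which encodes the intermediate filament protein vimentin. A peak covered its start site as well, but the midpoint was 1297 bp downstream and so outside the window. Of 20 genes of RNA polymerase I and its factors, which make the large rRNA precursor, 19 had a basal peak, POLR2F being the exception. Of 29 ribosome assembly factors 28 had one (96.6%), LYAR being the exception, and 1 further factor of that list, BOP1, was not matched.

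The members with a peak were bound close to the start site. The midpoint of the nearest basal peak had a median position of -18 bp (quartiles -154 and 88 bp, negative meaning upstream), with 46 midpoints upstream and 38 downstream. Regardless of side, the median distance was 123 bp over the 84 members, against 187 bp over the 11114 genes with a basal peak and 126 bp over the mitochondrial set. Within 250 bp of the start site lay 69 of the 84 midpoints (82.1%), against 61.8% over all genes. The peaks themselves were much wider than these distances. They had a median width of 1214 bp, with quartiles of 971 and 1582 bp and extremes of 609 and 3105 bp. Over all genes with a basal peak the median was 1336 bp. The members' peaks reached from a median of -664 bp to 538 bp. The median place of the midpoint therefore does not locate a binding site within the peak.

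**Figure D2:**
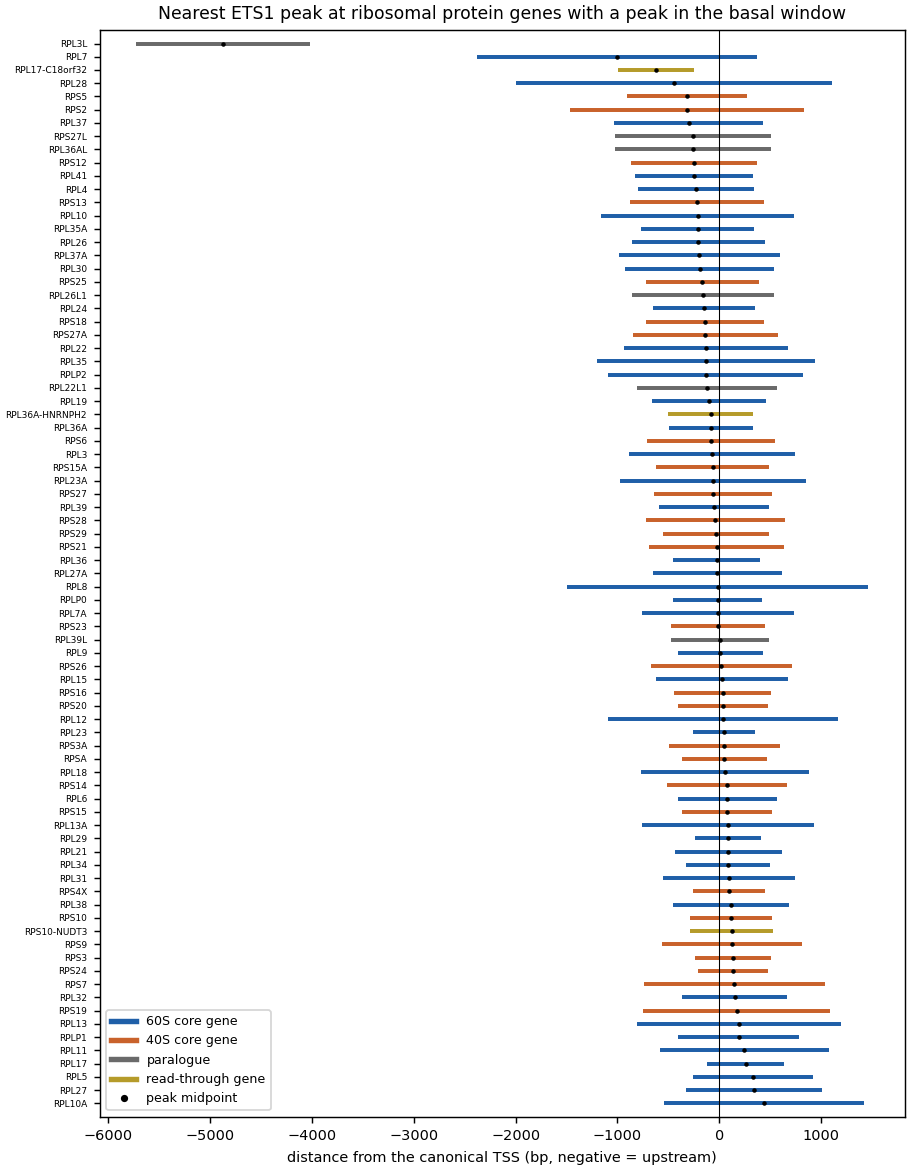
Extent of the nearest ETS1 peak at 81 ribosomal protein genes with a peak in the basal window, along the gene (bp from the canonical start site, negative meaning upstream), with a bar from peak start to peak end, a point at the midpoint and colours for 60S core genes, 40S core genes, paralogues and read-through genes, leaving out 3 of the 84 genes that are counted but not reported by name. The bars cross the start site for 79 of the genes plotted, and the exceptions are RPL3L, with a midpoint at -4873 bp, and RPL17-C18orf32, with a midpoint at -620 bp.

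Among the widest peaks were those at RPL28 (3105 bp), RPL8 (2954 bp), RPL7 (2750 bp) and RPS2 (2294 bp). At RPL28 the peak ran from 1997 bp upstream to 1107 bp downstream of the start site and also covered that of TMEM238. The RPL7 peak reached 2375 bp upstream, over the divergent start site of RDH10, a retinol dehydrogenase gene, and its midpoint at -1000 bp was the farthest of any core gene. At the other end of the range, the peak of RPL23 was 609 bp wide and its midpoint lay 44 bp downstream. Over 2 kb wide were 8 of the 84 peaks (9.52%, interval 4.91 to 17.7%), against 18.7% over all genes with a basal peak.

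A single basal peak was found at 78 members and 2 were found at RPL19, RPL23, RPL23A, RPL28, RPL41 and RPS24. In each case one of the peaks lay over the start site. The other midpoint was 1082 bp upstream at RPL41, 1545 bp upstream at RPL23 and between 2285 and 4631 bp upstream at RPL23A, RPL28, RPL19 and RPS24. The upstream peaks at RPL19, RPL23A and RPS24 covered the start sites of CACNB1, RAB34 and POLR3A, respectively, so that they may be assigned to either gene. Those at RPL23, RPL28 and RPL41 covered no other coding start site.

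The deposited list is not sorted by position, and what its order stands for is not given in the sources used here. The place of a peak in the list is therefore given as a rank only. The ribosomal protein genes stood early in it. The median place of their nearest basal peaks was 13.5% of the way down the list (quartiles 6.91 and 26.4%), against 37.7% over all genes with a basal peak, 37.2% over CpG-rich promoters and 19.2% over mitochondrial ribosomal protein genes. Within the first 10% of the list stood 33 of 84 (39.3%), against 15.3% over all genes. Within the first 13485 lines, the upper 50%, stood 83 of 84, against 63.1%. The latest of the 84, at 51.9%, was that of RPL9. The 40S core genes had a median place of 9.08% and the 60S core genes one of 15.4%, with quartiles that overlapped (4.37 to 28.1% and 7.16 to 25.4%). The earliest places were line 159 for RPS7, line 310 for RPS20, line 320 for RPS26 and line 349 for RPL37. Of these, RPS7 and RPS26 are among the Diamond-Blackfan anaemia genes.

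**Figure D3:**
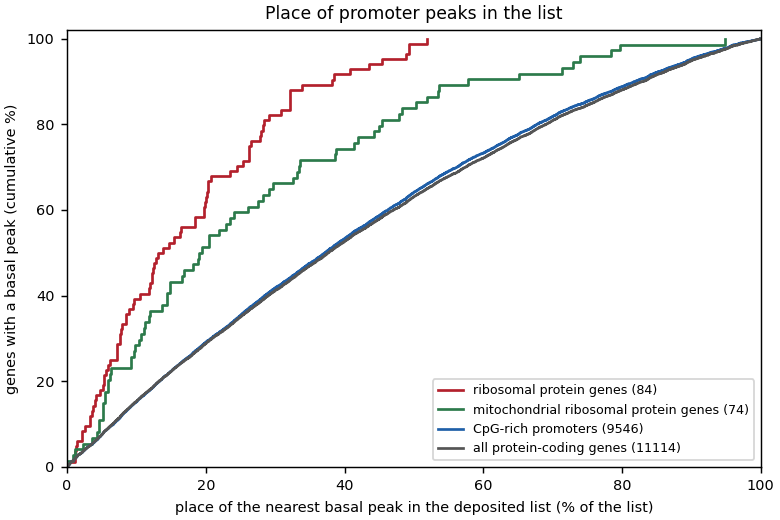
Cumulative share of genes (percent, y axis) against the place of their nearest basal peak in the deposited list (percent of the list, x axis) for ribosomal protein genes (84), mitochondrial ribosomal protein genes (74), CpG-rich promoters (9546) and all protein-coding genes (11114) with a basal peak. The ribosomal protein genes rise fastest, with a median of 13.5% against 37.7% for all genes, and are complete at 51.9%.

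The 4 members without a basal peak fell into different classes, and not all of them are reported here by name. RPL14, a core 60S gene on chromosome 3, had its nearest peak 47573 bp downstream of the start site. Of the 50-base stretches within 1 kb of its start site, 95.1% were unique in the genome. RPL10L is an intronless paralogue of RPL10 used in the testis, and its nearest peak was 1398 kb away. RPSA2, named as a copy of RPSA, had its nearest peak 215 kb upstream. At both of these paralogues the 50-base stretches within 250 bp of the start site were all unique. The remaining member without a basal peak had the lowest shares of unique stretches of all members. They were 2.30% within 1 kb and 10.2% within 250 bp of its start site. Whether uniqueness plays a part in the absent peaks was not tested.

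Among the other paralogues, RPL22L1, RPL26L1, RPL36AL, RPL39L and RPS27L had a peak over the start site. Their midpoints were 116 bp upstream at RPL22L1, 160 bp upstream at RPL26L1, 254 bp upstream at RPL36AL, 9 bp downstream at RPL39L and 256 bp upstream at RPS27L. RPL3L, the paralogue of RPL3 expressed in heart and skeletal muscle, entered the count only through a peak 4873 bp upstream. That peak covered the start site of NDUFB10, a subunit gene of respiratory complex I, and no peak covered the start site of RPL3L. Thus 5 of 8 paralogues (62.5%, interval 30.6 to 86.3%) had a peak over the start site, against 75 of 77 core genes (97.4%, interval 91.0 to 99.3%). RPS4X, the X-linked copy of a 40S gene, was counted as core and had a peak with its midpoint 98 bp downstream. The 3 read-through genes share their promoter peaks with RPL17, RPL36A and RPS10, so that the 84 members had 81 distinct nearest peaks.

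Peaks with a midpoint in the gene body were found at fewer members than other genes. A midpoint in the gene body, more than 1 kb from the start site, was found at 9 members (10.2%, interval 5.47 to 18.3%), against 22.6% of all genes. The difference was lost where any overlap of a peak with this part of the gene counted, with 30.7% of members against 32.6% of all genes. The members were also shorter, with a median length of 5596 bp against 27632 bp, and how far length sets the difference was not tested. These 9 genes held 12 such peaks, of which 4 lay in RPL37A, 35.0 to 56.7 kb from its start site, within a gene annotated as 80.4 kb long. RPL27A had a peak 6190 bp into the gene, and at line 948 of the list it was the earliest listed of the 12. Others lay in RPL39L, RPL3L, RPS3, RPS19 and the read-through genes RPL17-C18orf32 and RPS10-NUDT3, where the peaks covered the start sites of C18orf32 and NUDT3. Within 50 kb of the start site on either side a midpoint was found for 85 members (96.6%, interval 90.5 to 98.8%), against 78.0% of all genes, and RPL14 accounts for the step from 84 to 85. The number of peaks within that distance was highest at RPS2 (12), RPL13A and RPL3L (11 each), with 10 at RPS16 and a median of 3 per member against 2 over all genes. RPS2 and RPL3L lie close together on chromosome 16, and peaks between them count for both.

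Over all genes, ETS1 peaks were more frequent at CpG-rich promoters and at promoters with a divergent start site, and the members had more of both. CpG-rich promoters were found at 75 of 88 (85.2%, interval 76.3 to 91.2%), against 65.5% of all genes. A start site of another coding gene lay within 1 kb upstream on the opposite strand at 14 members (15.9%, lower bound 9.72%), against 9.47% of all genes, and a divergent long non-coding RNA start site at 16 (18.2%, interval 11.5 to 27.5%), against 9.49%. Peaks were about as frequent at members that lacked these features. All 13 members without a CpG-rich promoter had a basal peak (interval 77.2 to 100%), against 23.0% of the 6831 genes of that kind. These were RPL3L, for which the peak was the distant one described above, and RPL4, RPL6, RPL7, RPL17, RPL17-C18orf32, RPL32, RPL34, RPL35A, RPL41, RPS18, RPS27 and RPS27A. RPL17-C18orf32 was counted through the peak at RPL17. The 11 core genes among them missed only the limit on GC content, with 48.9 to 54.9%. Their CpG rate, at 0.601 or more of the expected one, met the limit of the CpG-rich class. The comparison with all 6831 genes was not matched for this. Of the 58 members with neither kind of divergent start site, 55 had a basal peak (94.8%, interval 85.9 to 98.2%), against 49.3% of all such genes.

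The nearest peak also covered the start site of another coding gene at 22 of the 84 members (26.2%), against 23.1% over all genes with a basal peak, and at 17 members that gene was no ribosomal protein gene. Such pairs included RPL15 with NKIRAS1, RPL18 with SPHK2, RPL35 with ARPC5L, RPL9 with LIAS and RPS18 with VPS52. Small nucleolar RNA genes, whose products guide chemical changes of rRNA, lay inside 29 members other than the read-through genes. These held 58 such RNAs, counted by distinct name, and all 29 hosts had a basal peak. Of the 58 members without such an RNA, 54 had one as well (93.1%). Over all protein-coding hosts of small nucleolar RNAs the share was 68.6% (290 of 423).

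The 6-mer CGGAAG was then searched for on both strands from 250 bp upstream to 50 bp downstream of the start site. It was present at 52 of 88 members (59.1%, interval 48.6 to 68.8%), against 25.5% of all protein-coding promoters of the same length, 33.2% of CpG-rich promoters and 48.7% of mitochondrial ribosomal protein genes. At 23 of 88 members it occurred more than once, against 1454 of 19819 protein-coding genes and 21 of 78 mitochondrial ribosomal protein genes. RPL37, RPL8, RPL27, RPS6, RPS14, RPS18 and RPS21 each had 3 matches in this window. The longer form CCGGAAGT was present at 12 members (13.6%, interval 7.98 to 22.3%), against 6.18% of all and 8.57% of CpG-rich promoters, the latter within the interval. Each match to it is also a match to CGGAAG. The AGGAAG form was present at 60.2% of members against 32.7% of all promoters and AGGAAA at 43.2% against 24.1%. In the mitochondrial set the shares were 29.5% and 32.1%. On the opposite strand these forms read CTTCCT and TTTCCT, pyrimidine runs that the TOP tracts of the members can match. How many of the matches lie in such tracts was not counted. The core GGAA alone was present at all 88 members and at 94.8% of all promoters, and so does not discriminate.

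Matches to CGGAAG stood close to the start site. There were 82 matches in all, with a median position of -56 bp, of which 47 started in the 100 bp upstream of the start site and 9 within the first 50 transcribed bases. The read-through genes repeat the matches of the genes they start with. Both orientations were equally frequent, with 42 matches on the strand of the gene and 40 on the opposite strand. A match in the 100 bp upstream was present at 38 members (43.2%), against 14.5% of all genes and 39.7% of the mitochondrial set. The median position over all genes was similar, at -54 bp. In the sequences printed above, RPL37 had matches at -36, -12 and 3 bp, RPS14 at -86, -46 and -35 bp, RPL6 at -63 and -20 bp and RPS3A at -82 and -6 bp.

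**Figure D4:**
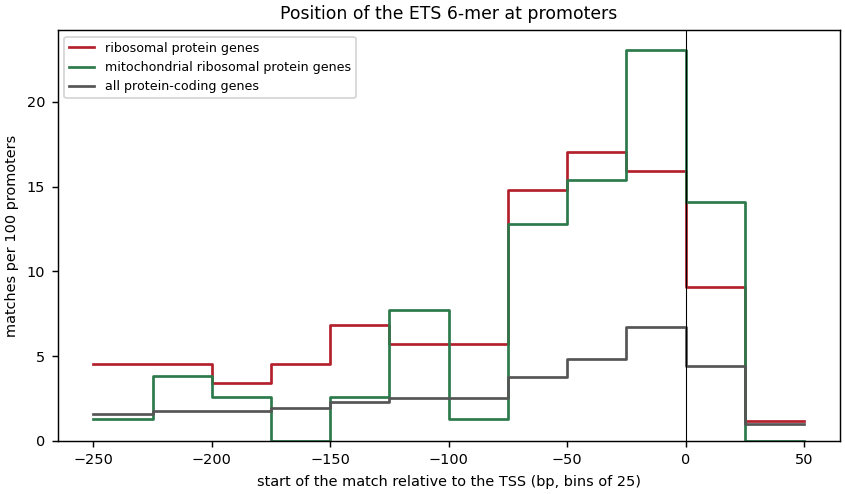
Matches to the ETS 6-mer CGGAAG per 100 promoters (y axis, both strands) by position of the match relative to the start site (bp, bins of 25, x axis) for ribosomal protein genes, mitochondrial ribosomal protein genes and all protein-coding genes. Of the 82 matches at ribosomal protein genes, 47 stood in the 100 bp upstream of the start site (57.3%, against 50.9% over all genes).

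Members with and without the 6-mer had a basal peak at similar shares. Only 4 members lacked a basal peak, so that a difference could hardly have shown. A basal peak was present at 50 of 52 members with CGGAAG (96.2%, interval 87.0 to 98.9%) and at 34 of 36 without it (94.4%, interval 81.9 to 98.5%). Over all genes the shares were 80.5% with the 6-mer and 47.7% without, and over CpG-rich promoters they were 86.9% and 66.8%. Members with a peak but no match in the searched window included RPS7 and RPS20, the earliest in the list. Under its whole peak RPS20 had 2 matches, and RPS7 had 0. Peaks at members with the 6-mer had a median place of 12.3% in the list and those at members without it one of 15.8%, while over all genes these values were 24.9% and 45.7%. Under the whole of the nearest peak, CGGAAG was present for 69 of 84 members (82.1%), against 68.5% over all genes with a basal peak. The RPL8 peak, with 6 matches, held the most.

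**Figure D5:**
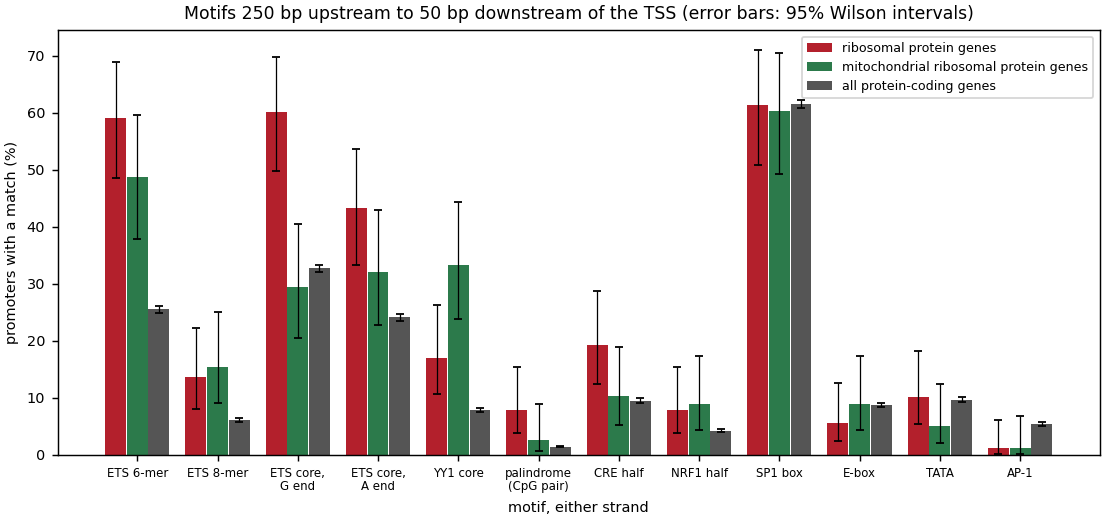
Share of promoters with a match to each of 12 short motifs from 250 bp upstream to 50 bp downstream of the start site (percent, y axis, either strand) for ribosomal protein genes, mitochondrial ribosomal protein genes and all protein-coding genes, with 95% Wilson intervals as error bars. ETS core with G or A end stands for AGGAAG or AGGAAA, which TOP tracts can match on the opposite strand. The ETS 6-mer (CGGAAG) stood at 59.1% of ribosomal protein genes against 25.5% of all genes, while the SP1 box stood at 61.4% against 61.5%.

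Other promoter motifs were counted in the same window and on both strands. ATGGCGG, the core of the YY1 site, was present at 15 members (17.0%, interval 10.6 to 26.2%), against 7.87% of all promoters, 10.7% of CpG-rich promoters, at the edge of the interval, and 33.3% of mitochondrial ribosomal protein promoters. The palindrome CTCGCGAG was present at 7 members (7.95%, interval 3.91 to 15.5%), against 1.47% of all promoters. TGACGT, one arm of the cAMP response element, was present at 17 members (19.3%, interval 12.4 to 28.8%), against 9.50%. GCATGCGC, part of the NRF1 site, was present at 7.95% against 4.25%, with an interval of 3.91 to 15.5% that includes the share of all promoters. The SP1 box GGGCGG stood at 61.4% of members (interval 50.9 to 70.9%), which includes the 61.5% of all promoters but lies below the 81.6% of CpG-rich promoters. TATAAA stood at 10.2% (interval 5.47 to 18.3%), which includes the 9.65% of all promoters but lies above the 4.88% of genes with a basal peak. The members counted here include those without a basal peak. Among the 77 core genes TATAAA stood at 7.79%, and the lower bound of 3.62% was below the 4.88%, so no excess was seen for them. The E-box CACGTG stood at 5.68% of members (interval 2.45 to 12.6%), which includes both the 8.76% of all and the 10.5% of CpG-rich promoters. The AP-1 site TGANTCA, where N is any base, was present at 1 member (1.14%), against 5.41% of all promoters, which lies within the interval of 0.201 to 6.16%. In all, 13 motifs were searched for, and a match is a description of the sequence, not evidence of binding.

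The start sites themselves carried the TOP signature. At 59 of 88 members (67.0%, interval 56.7 to 76.0%) the annotated first base was a C followed by at least 4 further pyrimidines, against 4.60% of all protein-coding genes and 6.41% of mitochondrial ribosomal protein genes. Among the core genes the count was 58 of 77 (75.3%). The longest run, at RPL39, was 19 bases, followed by 16 at RPL7A and 14 at RPS24. A basal peak was present at 58 of the 59 members with such a start (98.3%, interval 91.0 to 99.7%) and at 26 of the 29 without one (89.7%, interval 73.6 to 96.4%). Over all genes the shares were 68.3% and 55.5%. RPL14, without a peak, was among the first, and RPL10L and RPSA2 were among the second.

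Ribosomal protein genes have many processed pseudogenes, copies of their mRNA inserted elsewhere in the genome, and reads that match both a gene and a copy were discarded by the authors. GENCODE lists 133 pseudogenes named after RPL21, 87 after RPL23A, 80 after RPL7A and 74 after RPSA. The copies lack the promoter, and most sequence around the start sites of the members was unique, though less often than over all genes. The median share of unique 50-base stretches within 1 kb of the start site was 96.9%, with a lowest value of 2.30%. Over all genes and over the mitochondrial set this median was 100%. Within 250 bp all stretches were unique at 70 of 88 members. The same held for 17726 of 19819 protein-coding genes and 73 of 78 mitochondrial ribosomal protein genes. Of 1601 ribosomal protein pseudogenes, 19 had a peak over the copy or within 500 bp of its start (1.19%, interval 0.761 to 1.85%), against 1.76% of 8863 other processed pseudogenes. The share of the other pseudogenes lies within this interval. At 9 of the 19 the peak lay within 500 bp of a coding start site, against 55 of the 156 other processed pseudogenes with a peak.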

How the data were processed

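ETS1 ChIP-Seq was performed by the authors in SCC25 cells (3 samples, 2 with C20 and 1 with 501A). Per the labels and methods, 50 bp reads were mapped to hg19 with Bowtie 1.1.1, keeping reads with 1 locus, and handled with SAMtools 1.3. Peaks were called with MACS2 against merged input and filtered by IDR. The deposited list gives peak positions in 3 columns, pooled over all samples, with no score, signal or value per sample, so no replicate spread could be computed, and it carries no depth (the methods give a range of reads for the samples as a whole).

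Peaks were placed by midpoint against the Ensembl canonical TSS of each protein-coding gene of GENCODE 44 mapped to hg19 (279 genes without one were left out). Positions are given 1-based, and distances follow the direction of transcription. Sequence was read from hg19 (none is printed for chromosome 8), and uniqueness was counted over exact 50-base stretches on both strands. Named genes were those without a basal peak, with 2 of them, the 5 widest, 5 earliest listed and 5 with most peaks within 50 kb, the stalk, Diamond-Blackfan, paralogue and read-through genes. Some genes under this rule are counted but not reported here by name. RPL9, RPL14, RPL15, RPL18, RPL23, RPL39 and the other genes given as examples of pairs, motif counts or runs were chosen after their values were seen. The members and lists were chosen with earlier results of these data known, and no statistical test was run. The code was checked on planted data (300 of 300 peaks and 300 of 300 motifs found). Tables were made with pandas 2.3.3 under Python 3.11.15, intervals with scipy 1.17.1 and sequence access with pysam 0.24.0 and samtools 1.23.1.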

Additional observations from a re-analysis of the deposited data

How the results depend on the processing

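No paired analysis was possible because the list is pooled over the 3 samples, and for the same reason no replicate could be left out. Of 44 alternatives over 12 results, 36 stayed within the interval of the reported value. Counting only the first 13485 peaks of the list gave 94.3% of members with a basal peak, against 36.4% of all genes. Peaks over the start site were found at 97.4% of members without read-through genes and paralogues. Peaks in the gene body were found at 3.41% (13.0% of all genes) with the first 13485 peaks. The share was 30.7% (32.6% of all genes) where any overlap counted. How many of these overlaps came from promoter peaks was not counted. CGGAAG was present at 71.6% of members (44.2% of all genes) within 500 bp to each side, and at 32.1% (22.3%) in 200 bp at the peak midpoint. A pyrimidine start was found at 81.8% of members (21.8%) where the start site could shift by 5 bp. The median share of unique stretches was 100% within 250 bp, as it was over all genes. Peaks over the pseudogene body alone were found at 0.75% (1.33% of other processed pseudogenes). Joining peaks within 1 kb gave 93.2% of members with a basal peak, against 55.4% of all genes. With only the genes of at least 50% unique stretches, a setting chosen after seeing the data, the basal share was 96.6%, against 57.7%. The absence of a score and of depth limits all statements to listed or not listed.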
